A study of Mus musculus with 12 samples.

Results

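Sox genes encode transcription factors that bind and bend DNA through a shared domain, the high mobility group (HMG) box. The genes examined here were 10 members of this family: Sox4, Sox11 and Sox12 of group C, Sox5 and Sox6 of group D, Sox8, Sox9 and Sox10 of group E, and Sox17 and Sox18 of group F. They were chosen by name, by a rule written with earlier results of these data known and with the rows of Sox11 for the methyltransferase lines in view. Of these 10 genes, 5 had a row in at least 1 of the 3 deposited tables, which together held 10289 genes. Of all annotated protein-coding genes, 42.2% had such a row, so the count says nothing particular about Sox genes. A row is kept only for a gene that passed the authors' limit on the false discovery rate (FDR) in the comparison of that table, so the measured values that selected the 5 genes were those of the authors' test. Sox5, Sox6, Sox10, Sox17 and Sox18 had no row, and for these 5 genes no level or difference can be given.

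The groups of the Sox family differ in the sequence of the HMG box, in the parts of the protein outside it and in the cells they are known for. Group C proteins act in progenitor cells of many tissues, group E proteins in cartilage, neural crest and glia, group D proteins act beside them in cartilage and also in muscle fibres, and group F proteins act in endothelium. Several Sox proteins are known to influence myoblasts: Sox8 and Sox9 can restrain muscle differentiation, and Sox6 represses slow fibre genes.

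RNA was sequenced from C2C12 cells, a mouse myoblast line that fuses into myotubes when serum is withdrawn. The cells were stable lines made with lentiviral vectors and puromycin selection, and carried cDNA for GFP, the negative control, or for mouse METTL3 or METTL14, the core subunits of the enzyme that writes N6-methyladenosine (m6A) on RNA. The GFP line was sequenced in growth medium (GM, day 0) and at day 4 of differentiation (D4). The METTL3 and METTL14 lines were sequenced in GM, and each of the 4 groups had 2 libraries. The titles of the METTL14 libraries give day 0 whereas their time point field gives day 4, and the title was used. The paper's figure legends also place the sequenced METTL14 cells in GM. The labels do not say whether the libraries of a group came from separate cultures. MeRIP-seq, in which m6A-bearing RNA fragments are captured with an antibody, was also made in 4 libraries and was not analysed here.

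The level used is the authors' mean normalized count, 1 value per gene averaged over libraries after division by DESeq2 size factors. Tables that listed the same gene gave it the same level (largest relative difference 4.77e-10), so the tables share a common set of libraries and the level is not specific to a stage or line. No value per library was analysed, so no SD or n stands behind a level, the tables give no depth per library, and no difference between groups was tested. For the same reason Mettl3 and Mettl14 could not be checked library by library against the labels. Muscle genes were checked in the pooled levels. Des, which encodes the muscle intermediate filament desmin, was at 24157 normalized counts, Myod1 at 1845, Myog at 2124 and Myf5 at 593, whereas Pax7, a marker of muscle stem cells, was at 21.7.

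Of the genes named by the rule, all 3 of group C and 2 of the 3 of group E had a row. In groups D and F, 0 of 2 genes each had one. A row in any table was held by 42.2% of all annotated protein-coding genes. Groups of 2 or 3 genes are too small to be told apart by such counts. Sox11 had a row in all 3 tables. Sox4 and Sox9 had a row for D4 against GM and for METTL3 against GFP. Sox8 and Sox12 had a row for D4 against GM alone. The count of listed members was thus 5 of 10 for D4, where 40.1% of all annotated protein-coding genes had a row, 3 of 10 for METTL3, where 7.80% did, and 1 of 10 for METTL14, where 4.91% did. All 3 comparisons share the GFP libraries in GM, so rows of the same gene in several tables are not independent. These counts describe what the rule selected and are no evidence about the family, and a row gives neither a size nor a direction. Among the other 9 numbered Sox genes of the mouse, Sox2, a gene of neural and pluripotent cells, had a row for D4 at a mean of 11.5 normalized counts. Sox13, a group D gene outside the rule, had rows for D4 and METTL14 at 38.3.

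The group C genes spanned a wide range of levels. Sox4 was the most abundant listed Sox gene, with a mean of 3663 normalized counts, higher than 94.3% of the genes with a row. Sox11 was at 781 normalized counts and higher than 64.9% of them, and Sox12 was at 117 and higher than 26.3%. Of the group E genes, Sox9, known as the master regulator of cartilage formation, was at 1086 normalized counts (higher than 73.7%). Sox8 was at 23.1 (higher than 12.4%), so its level rests on few reads. The median over all genes with a row was 458, and 3 of the 5 listed Sox genes lay above it.

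Counts grow with transcript length, so levels were compared between genes per kilobase of merged exons. On this scale the order was Sox4 (764 normalized counts per kilobase), Sox9 (263), Sox11 (94.0), Sox12 (26.4) and Sox8 (7.41). Each step down this order was between 2.79-fold, from Sox9 to Sox11, and 3.57-fold, from Sox11 to Sox12. The step from Sox9 to Sox11 depended on the length used, since by coding length these genes were close, at 713 and 658. Coding length leaves out the 3′ untranslated region, which is 83.7% of the Sox11 transcript and 54.4% of that of Sox9. The paper's own length scaling was per kilobase of exon. Without values per library it is not known whether neighbours in this order differ beyond their spread. The long Sox11 transcript moved this gene from above the median of listed genes to just below it, which was 99.5 per kilobase, and 2 of the 5 genes then remained above. Summed per kilobase, the 3 listed group C genes reached 884 and the 2 listed group E genes 270. Sox4 made up 66.2% of the sum over these 5 genes, in which Sox10 has no part because it had no row.

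**Figure D1:**
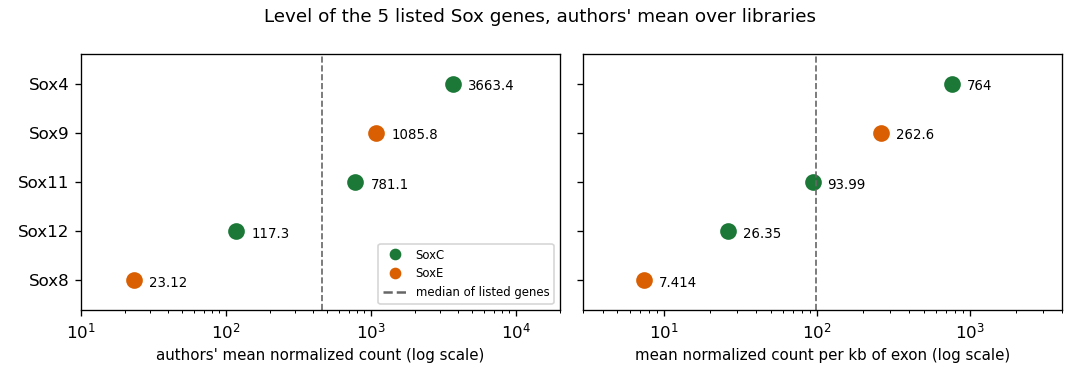
Authors' mean normalized count (left) and the same per kilobase of merged exons (right) on log axes for the 5 Sox genes with a row, green for group C and orange for group E; dashed lines mark the medians of all listed genes, and no error bar can be drawn because no library values were used. Sox4 stands highest and Sox8 lowest on both scales, and Sox11 crosses the median, from 781 against 458 on the left to 94.0 against 99.5 on the right.

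The levels of Sox4 and Sox8 carry a limit of annotation. Exons of Gm26735, a long noncoding RNA on the opposite strand, cover 2616 exonic bases of Sox4 (54.6%), and those of the antisense gene 2810468N07Rik cover 329 bases of Sox8 (10.6%). Whether reads were counted by strand is not given in the sources used here, so reads of these partners cannot be told apart from those of the Sox genes. How reads that overlap both genes were treated is not given either. The levels of Sox4 and Sox8 could therefore be too high or too low. No exon of another annotated gene overlapped Sox9, Sox11 or Sox12.

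Genes known as targets of Sox proteins were taken from a list of 20. Of these, 11 had a row, where 42.2% of all annotated protein-coding genes had a row in any table, so the count says nothing particular about Sox targets. The lowest mean normalized counts among them were those of Cldn5 (4.35), Col2a1 (12.2) and Myl2 (18.1). The list holds targets that the group C proteins activate in neurons and progenitors, of which Tead2, a TEAD family transcription factor, was at 170 normalized counts per kilobase and Tubb3, a neuronal tubulin, at 249. Each had a row in all 3 tables, and Dcx had none. The share of all genes with a row in all 3 was not computed, and the 3 comparisons share the GFP libraries in GM. Of 6 cartilage genes under groups E and D, Col2a1, the main collagen of cartilage, had rows for METTL3 and METTL14 at a level of 1.32 per kilobase, and Col11a2 for D4 at 13.2, whereas Acan, Comp, Matn1 and Col9a1 had none. Of 4 Sox10 targets, Mitf was listed, at 27.5 per kilobase. Of 3 endothelial targets of group F, Vcam1 had a row for METTL3 at 115 per kilobase and Cldn5 for D4 at 3.07, and Cdh5 had no row. Vcam1 is not specific to endothelium, since the paper sorted muscle stem cells by this surface marker. The 4 slow muscle genes that Sox6 is known to repress each had a row for D4, as did 40.1% of all annotated protein-coding genes. They were Tnnt1 at 1669, Tnni1 at 1011, Myh7 at 161 and Myl2 at 9.30 normalized counts per kilobase.

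The group C genes have a simple structure that the rule did not use. In the GENCODE annotation of GRCm38, Sox4 (ENSMUSG00000076431) lies on the minus strand of chromosome 13 from 28948919 to 28953713, Sox11 (ENSMUSG00000063632) on the minus strand of chromosome 12 from 27334264 to 27342574, and Sox12 (ENSMUSG00000051817) on the minus strand of chromosome 2 from 152393611 to 152398063. Each has its whole longest coding transcript in 1 exon. This is not particular to group C, since the same holds for Sox1, Sox2, Sox3, Sox14 and Sox21 among the other numbered Sox genes. The group E genes are interrupted: Sox9 (ENSMUSG00000000567, plus strand of chromosome 11, 112782224 to 112787760) and Sox8 (ENSMUSG00000024176, minus strand of chromosome 17, 25565892 to 25570686) each have 3 exons. Among the unlisted genes, Sox5 has 15 exons and Sox6 has 16. The 3′ untranslated region (UTR) took up 58.0% of the Sox4 transcript, 83.7% of Sox11 and 70.6% of Sox12. In Sox11 it was 6957 bases long beside a coding sequence of 1188.

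The HMG box is what the members share in sequence. It was read as a window of 79 residues translated from the GENCODE coding sequences, and found whole in all 10 proteins. Within a group the boxes of the 8 possible pairs were 87.3% to 98.7% identical, and between groups the 37 pairs were 46.8% to 69.6% identical. Sox4 and Sox11 had 74 of 79 residues in common, and Sox12 had 69 in common with each of them. The closest pair was Sox8 and Sox9, with 78 of 79. Of these, Sox9 had the higher level and Sox8 the lower. Over all 10 proteins, 30 positions (38.0%) held the same residue. The longest Sox17 transcript encodes a shorter form, in which the RPMNAF motif that sets the window was not found. Whether part of the box remains in that form was not examined. The Sox17 box was taken from the transcript with its longest coding sequence.

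**Figure D2:**
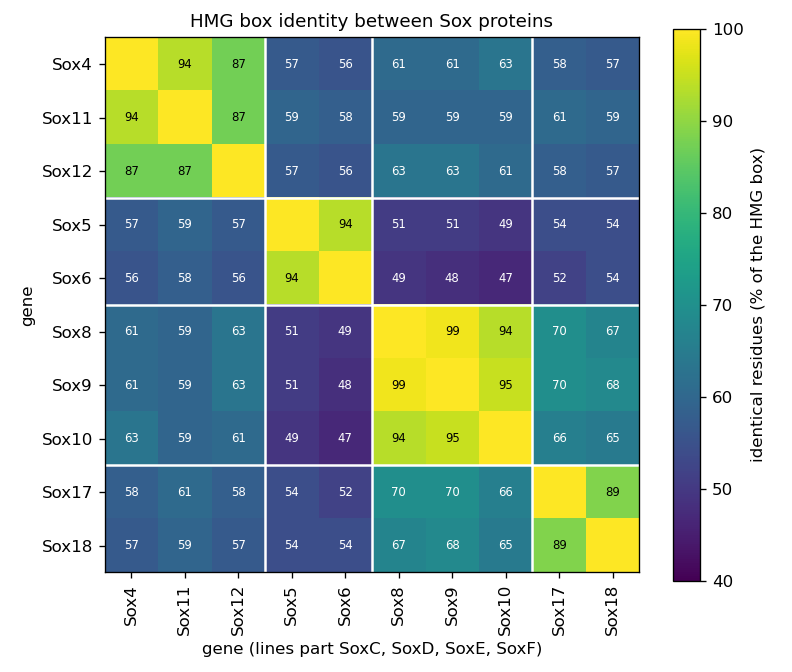
Percentage of identical residues over the 79 positions of the HMG box for each pair of the 10 Sox proteins, ordered by group, with white lines between groups. The blocks on the diagonal hold 87.3% or more, and the pairs outside them hold 69.6% or less.

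The coding sequence of the box is shown for Sox4 and Sox11, the group C genes of the highest levels, because their boxes differ at few bases. Sequences are those of GENCODE transcripts, 5′ to 3′ on the minus strand, and lie within the coding part of the single exon. Capitals mark matches to RRACH (R is A or G and H is A, C or T), the motif in which m6A is found. The windows are chr13:28952617-28952853 and chr12:27342034-27342270 of GRCm38, each 237 bases long.
Sox4: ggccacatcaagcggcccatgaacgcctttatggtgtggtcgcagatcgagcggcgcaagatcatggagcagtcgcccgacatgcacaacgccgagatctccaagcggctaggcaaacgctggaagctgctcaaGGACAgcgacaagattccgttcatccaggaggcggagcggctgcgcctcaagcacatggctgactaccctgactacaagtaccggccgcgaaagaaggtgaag
Sox11: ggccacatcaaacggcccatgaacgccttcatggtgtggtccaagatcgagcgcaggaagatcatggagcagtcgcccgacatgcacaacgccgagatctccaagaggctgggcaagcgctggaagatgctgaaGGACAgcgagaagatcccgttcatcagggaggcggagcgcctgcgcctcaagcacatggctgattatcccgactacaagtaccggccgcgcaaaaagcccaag

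The Sox4 and Sox11 boxes were identical at 89.5% of bases. Each held 1 RRACH match, with the same letters. A match shows only that the letters are present and does not show that the base is methylated.

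Over the whole transcript, motifs were sparser in group C than in most genes. Sox4 had 61 RRACH matches (12.7 per kilobase), Sox11 had 106 (12.8) and Sox12 had 61 (13.7), against a median of 14.7 per kilobase (interquartile range 12.8 to 16.8) over the longest coding transcripts of 21866 protein-coding genes. Of all 10 Sox genes, 3 were above this median, Sox6, Sox9 and Sox17, and 7 were below it, with Sox18 lowest at 8.64. In the Sox17 transcript that encodes the box the density was 12.8, below the median of 14.8 for transcripts chosen by coding length, which left Sox6 and Sox9 above. In Sox4 and Sox11 the coding sequence was the sparser part, with 8.31 and 8.42 matches per kilobase, where the median of coding sequences was 15.2. The 3′ UTRs of Sox4 and Sox11 had 14.4 and 13.4 per kilobase, near the median of 13.96 over 3′ UTRs. Sox12 did not share this, with 14.81 in its coding sequence and 14.32 in its 3′ UTR. Outside group C, the coding sequences of Sox18 and Sox8 were also sparse, at 7.94 and 10.75. The 3′ UTR held 65.6% of the matches in Sox4, 87.7% in Sox11 and 73.8% in Sox12, where it made up 58.0%, 83.7% and 70.6% of the transcript. In Sox9, where coding sequence and 3′ UTR had 15.1 and 15.6 matches per kilobase, the 3′ UTR held 56.5%.

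**Figure D3:**
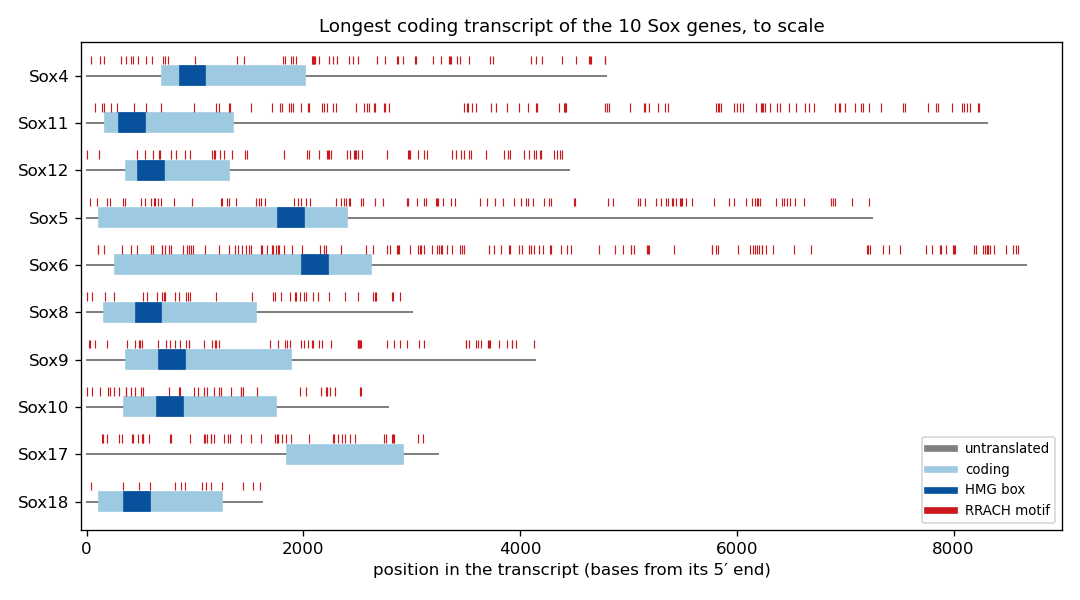
Longest coding transcript of each of the 10 Sox genes, drawn to scale in bases from its 5′ end, with untranslated parts as a line, the coding sequence in light blue, the HMG box in dark blue and each RRACH match as a red tick. Sox11 has the longest 3′ UTR of the 10, 6957 bases, and 93 of its 106 matches are there. No box is drawn for Sox17 because the RPMNAF motif that sets the window was not found in the form its longest transcript encodes.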

How the data were processed

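Per the paper's methods, hisat2 alignment to GRCm38 was followed by gene counts from featureCounts on an Ensembl annotation, and by DESeq2 normalization and comparison, all by the authors, who deposited 3 tables holding the genes within their FDR limit. Program versions are not given in the sources used here. The level analysed is a signal made by the authors, the deposited mean over libraries of counts divided by size factors. The tables also hold the fold changes, standard errors, test statistics and p-values of the authors' own comparisons, and an unlabelled value beside 1 gene in 2 tables. None of these was used, so directions and sizes of change are not reported here, no test was run and no library could be left out.

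The members and lists were chosen with earlier results of these data known. The text names all 10 members, the other numbered Sox genes with a row and listed Sox targets. Muscle markers, Mettl3 and Mettl14 were added after values were seen. Levels per kilobase used merged exons of GENCODE M21 (GRCm38), which held 10282 of 10289 identifiers. The lengths and exon overlaps thus come from a different annotation release than the Ensembl one on which the authors counted reads. A percentile is the share of genes with a row at a lower level. The HMG box was 79 residues from 4 before the RPMNAF motif. RRACH matches were counted on the transcribed strand, overlaps included, and region medians used regions of at least 200 bases. Counting steps were tested on simulated data. Other lengths, reference sets, transcripts and box limits were tried. Python 3.11.15 and matplotlib 3.10.9 were used. The box sequence of 1 further gene is not reported here.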

Additional observations from a re-analysis of the deposited data

How the results depend on the processing

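With protein-coding genes as the reference set, or with a minimum of 10 normalized counts, the number of Sox genes above the median level stayed at 3, and it was 2 per kilobase. The order of the 5 levels per kilobase was the same with coding length in place of merged exons, though the levels were then higher. They were 2769 for Sox4, 713 for Sox9, 658 for Sox11, 124 for Sox12 and 16.6 for Sox8. Sox9 and Sox11 thus lay close together by coding length, and the step between them seen with merged exons was not kept. Coding length leaves out the 3′ UTR, which is a larger part of the Sox11 transcript than of the Sox9 transcript. The median motif density of the 10 genes was 13.5 per kilobase in the longest transcripts and 13.1 in those with the longest coding sequence, where Sox17 was no longer above the median of coding genes and the number of Sox genes above it went from 3 to 2. The median box identity over all pairs was 59.5% and fell to 53.9% with 5 more residues on each side. Of 34 alternatives over the reported levels, percentiles, counts, densities and identities, the 5 levels by coding length moved by over 1.5 times, and none of the other 29 moved by more than 10 percentile points or 1.5 times. Leaving out a replicate was not run, since 1 pooled mean per gene was used. No paired analysis was possible because the columns carry no replicate and no test was made. Among the Sox genes, low counts limit Sox2, Sox8 and Sox13 most, at means of 11.5, 23.1 and 38.3 normalized counts, and among their listed targets Cldn5, Col2a1 and Myl2.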
